A study of Mus musculus with 26 samples.

Results

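The 6 genes described here are the Notch receptors Notch1, Notch2 and Notch3, the DNA-binding factor Rbpj, its coactivator Maml1 and the ubiquitin ligase gene Dtx4. They were taken by name from the 18193 genes of the array, with every probe set that the platform annotation gives to 1 of them alone, which makes 14 of 34945 probe sets. Their signals were compared over 13 N1-CKO and 13 WT cells, each a single mouse retinal cell on its own array. All cells came from C57BL/6 mice homozygous for floxed Notch1, so the WT cells carry the floxed allele too. In vivo electroporation was done on postnatal day 0, and the retinas were harvested on postnatal day 3. N1-CKO cells received CAG:Cre with CALNL-GFP, a reporter that Cre switches on, and WT cells received CAG:GFP. CAG is a broadly active promoter, so neither group is limited to 1 retinal cell type, and the cells to be lysed were selected by eye for GFP. The question put to these genes is which cells held a receptor transcript, and whether the deletion of Notch1 went with another level of Notch2 or Rbpj.

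Notch receptors are cut after a ligand on a neighbouring cell binds them, and the freed intracellular domain enters the nucleus. There it joins Rbpj, which sits on DNA with corepressors when no receptor fragment is present, and the pair recruits a Mastermind coactivator such as Maml1. In the retina Notch1 keeps progenitors from differentiating, and its loss is known to favour photoreceptor formation. Deltex proteins are ubiquitin ligases that bind the receptors' intracellular part or act near them in endocytosis, and Notch3 is best known in the mural cells of vessels.

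No test between the groups was possible in this design, because nothing in the labels ties a cell to an animal, a litter or a session of picking: each group stands as 1 sample, and SDs and ranges describe cells. Values are MAS5 signal on a linear scale (1 value per probe set, with each array scaled to the same mean), or its log2 after all signals under the pooled median of 25.0 were raised to it. Where a gene has several probe sets, the main one is that with the highest mean log2 signal. A gene counts as detected where its signal was at or above the 90th percentile of the same array, a threshold that lay between 245 and 2164 in N1-CKO cells and between 396 and 2409 in WT cells. Shares carry 95% Clopper-Pearson intervals, exact for the counting of cells and covering no other error. Precision is limited by how many arrays there are, and fewer cells with a transcript cannot be told apart from less transcript per cell in a mean over cells.

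The arrays differed in quality in ways that touch these genes. The Gapdh ratio, of its 3' control over its 5' control, which is high where cDNA is short or RNA degraded, exceeded 3 in 5 N1-CKO and 2 WT cells, with ranges of 1.46 to 245 in N1-CKO and 1.40 to 3.26 in WT cells. Signal of the 18S ribosomal RNA control divided the arrays at a wide gap into 5 N1-CKO and 5 WT high-18S cells and 8 and 8 low-18S cells, and differences within these sets are given for each of the 6 genes. Markers used for retinal lineages were detected: at least 1 of 7 progenitor genes in all 13 cells of either group, and at least 1 of 6 photoreceptor genes in 13 N1-CKO and 11 WT cells. At least 1 of 6 Muller glia genes was detected in 13 N1-CKO and 12 WT cells, and at least 1 of 6 amacrine genes in 8 and 6. For bipolar and for ganglion cell genes the numbers were 1 and 2, and for horizontal cell genes 3 and 1. A single gene can meet this rule, so it does not fix what a cell was. Ccnd1 alone was detected in all 13 WT cells and Neurod1 alone in all 13 N1-CKO cells. Of 6 mural markers, Rgs5, Cspg4, Acta2 and Kcnj8 were detected in no cell, Pdgfrb in 1 WT cell and Abcc9 in 1 N1-CKO cell. Of 5 microglial markers, Cx3cr1, P2ry12, Csf1r and Aif1 were detected in no cell and C1qa in 1 WT cell. Of 5 endothelial markers, Cldn5, Pecam1, Cdh5 and Tek were detected in no cell and Kdr in 3 N1-CKO and 9 WT cells, with a difference in mean log2 signal, N1-CKO minus WT, of -2.38.

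The promoter of Rbpj is shown because it alone among the members' promoters found in the RefSeq table holds the core letters to which the Rbpj protein binds. TGGGAA was searched on both strands, so that TTCCCA counts as a match on the other strand, in windows from 250 bases before to 50 bases after each gene start (RefSeq, GRCm38.p6). It was found in 25.6% of all 32851 promoter windows. Of the members' 6 windows, the 2 of Rbpj held it, and these overlap, so that the single match of the second is also the second match of the first. Those of Notch1, Notch2, Notch3 and Maml1 did not. For Dtx4 no promoter entry was found, so it was not searched. The upstream Rbpj window lies at chr5:53590096-53590395 on the plus strand, and capitals mark its 2 matches, which begin 149 and 65 bases before the start.
Rbpj: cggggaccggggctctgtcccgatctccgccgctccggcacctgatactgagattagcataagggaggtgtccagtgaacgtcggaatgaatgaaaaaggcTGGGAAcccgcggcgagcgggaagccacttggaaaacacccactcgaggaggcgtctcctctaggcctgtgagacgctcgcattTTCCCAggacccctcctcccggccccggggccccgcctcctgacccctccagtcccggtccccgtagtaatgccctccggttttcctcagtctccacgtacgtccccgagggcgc
The longer form GTGGGAA, which 6.38% of all windows hold, was in none of them.

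Notch1 signal fell into bright and dim cells, with no cell between 767 and 3535. The main probe set, 1418634_at, ran from 15.9 through a median of 5462 to 39239 in N1-CKO cells, against 1.09, 10102 and 23914 in WT cells. Cells with it lay at 4892 or above among N1-CKO cells and at 3535 or above among WT cells. Cells without it lay at 134 or below among N1-CKO cells and at 767 or below among WT cells, where the highest, cell 6, was well above the floor. It was present in 8 of 13 N1-CKO cells (61.5%, interval 31.6 to 86.1) and in 10 of 13 WT cells (76.9%, interval 46.2 to 94.96), so the intervals overlap widely. Among bright cells, N1-CKO cells 8 and 9 (39239 and 25347) lay above every WT cell, and the others overlapped with WT cells. The difference in mean log2 signal, N1-CKO minus WT, was -1.65, smaller than the SD over N1-CKO cells (4.21) and over WT cells (3.06).

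**Figure D1:**
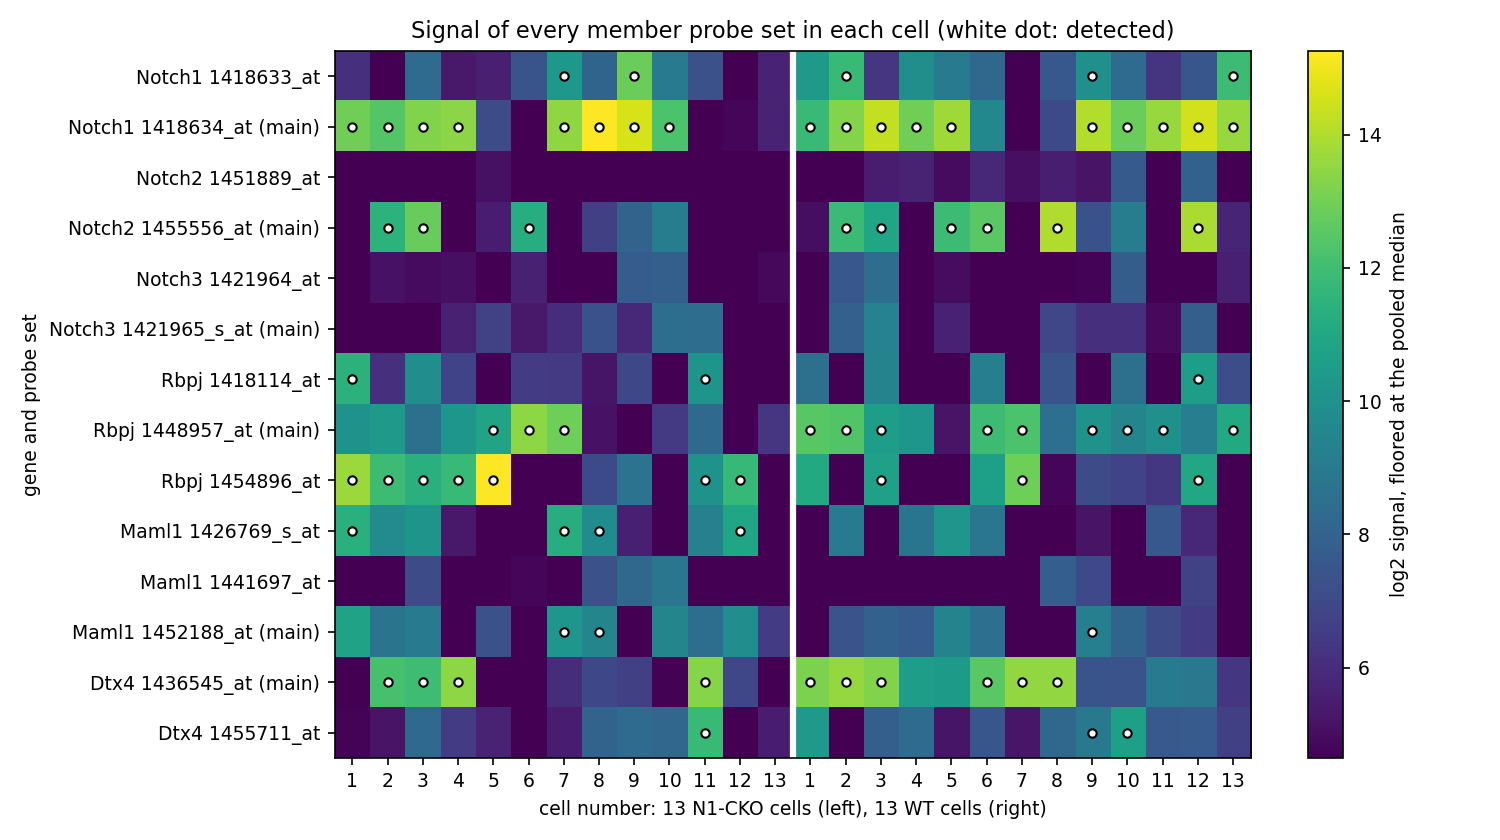
Log2 signal (floored at the pooled median) of all 14 probe sets of the 6 genes in rows, over 13 N1-CKO cells on the left and 13 WT cells on the right, with a white dot where a probe set was detected. Notch1 was bright in 8 N1-CKO and 10 WT cells, whereas both Notch3 probe sets were detected in no cell.

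Missing Notch1 signal went with a high Gapdh ratio in N1-CKO cells, but not in most WT cells without it. The 5 N1-CKO cells without Notch1 were cells 5, 6, 11, 12 and 13, and 4 of them were among the 5 N1-CKO cells with a Gapdh ratio above 3. Of the 3 WT cells without Notch1, cells 6 and 8 had ratios of 1.40 and 1.66 and cell 7 had 3.26, while WT cell 3, at 3.24, had Notch1. Of the 8 N1-CKO cells whose ratio did not exceed 3, 7 had Notch1, against 9 of 11 such WT cells, and the difference over these cells was -0.09. Among high-18S cells it was -0.40, and among low-18S cells -2.43. The part of RNA quality in the difference was not tested. The other Notch1 probe set, 1418633_at, was detected in 2 N1-CKO and 3 WT cells, every one of which had the main probe set as well, and differed by -1.27. Among high-18S cells it differed by 1.19, the opposite sign. Probe positions relative to the floxed segment were not used here, so a Notch1 signal in N1-CKO cells says nothing on whether that part was removed.

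Notch2 was seen in fewer cells than Notch1 of either group. Its main probe set, 1455556_at, ran from 1.26 through a median of 45.7 to 7103 in N1-CKO cells, against 6.19, 554 and 16116 in WT cells. It was detected in 3 of 13 N1-CKO cells (23.1%, interval 5.04 to 53.8) and in 6 of 13 WT cells (46.2%, interval 19.2 to 74.9). WT cells 8 and 12, at 16116 and 15456, lay above every N1-CKO cell, and otherwise the groups overlapped. Mean log2 signal was 7.14 ± 3.07 in N1-CKO and 8.95 ± 3.74 in WT cells (SD, n = 13 cells each), a difference of -1.81 that lies within the spread. Its sign was the same among high-18S cells (-1.54), low-18S cells (-1.98) and cells below the Gapdh limit of 3 (-1.40). The median of log2 signals over cells, in place of the mean, differed by -3.60. The second Notch2 probe set, 1451889_at, was near background in all 26 cells, with highest signals of 34.7 in N1-CKO and 249.1 in WT cells. No increase of Notch2 in N1-CKO cells was seen in any of these values, although 13 cells per group leave wide intervals.

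Notch3 was detected in 0 of 26 cells, which by a limit of 3 counts allows a share of up to 11.5%. This holds for the 90th percentile: at the 80th it was detected in 1 N1-CKO and 3 WT cells. Its probe sets reached at most 357 in N1-CKO cells and 644 in WT cells. The main probe set, 1421965_s_at, had medians of 48.7 in N1-CKO and 49.1 in WT cells, and the difference of -0.07 is one between signals near background (0.57 among high-18S and -0.47 among low-18S cells).

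Taking Notch1 and Notch2 together, 9 of 13 N1-CKO cells and 12 of 13 WT cells had at least 1 of the receptors. Both were detected in 2 N1-CKO cells (15.4%, interval 1.92 to 45.4) and in 4 WT cells (30.8%, interval 9.09 to 61.4). Notch1 alone was detected in 6 N1-CKO and 6 WT cells. Notch2 alone was detected in 1 N1-CKO cell and 2 WT cells, and neither in 4 N1-CKO cells (5, 11, 12 and 13) and 1 WT cell (7). The groups thus held the same number of cells with Notch1 alone and differed in the cells with Notch2 and in those with no receptor, each by 3 cells. Of the 4 N1-CKO cells with neither, 3 had a Gapdh ratio above 3, and the single WT cell with neither, with a ratio of 3.26, did so as well.

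Across cells, the levels of these receptors were close to unrelated. After group means were removed, log2 signals of Notch1 and Notch2 correlated with r = 0.12 over 26 cells (Spearman's rho 0.18), a value inside the central 90% of the correlations of Notch1 with 4681 genes detected in at least 6 cells, -0.34 to 0.41. Within N1-CKO cells r was 0.19 and within WT cells 0.04 (13 cells each). Cells share the amplification method and the scaling of the arrays, and these are descriptions without a test. Of the 5 N1-CKO cells without Notch1, only cell 6 had Notch2, and of the 3 WT cells without Notch1, cells 6 and 8 had it.

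**Figure D2:**
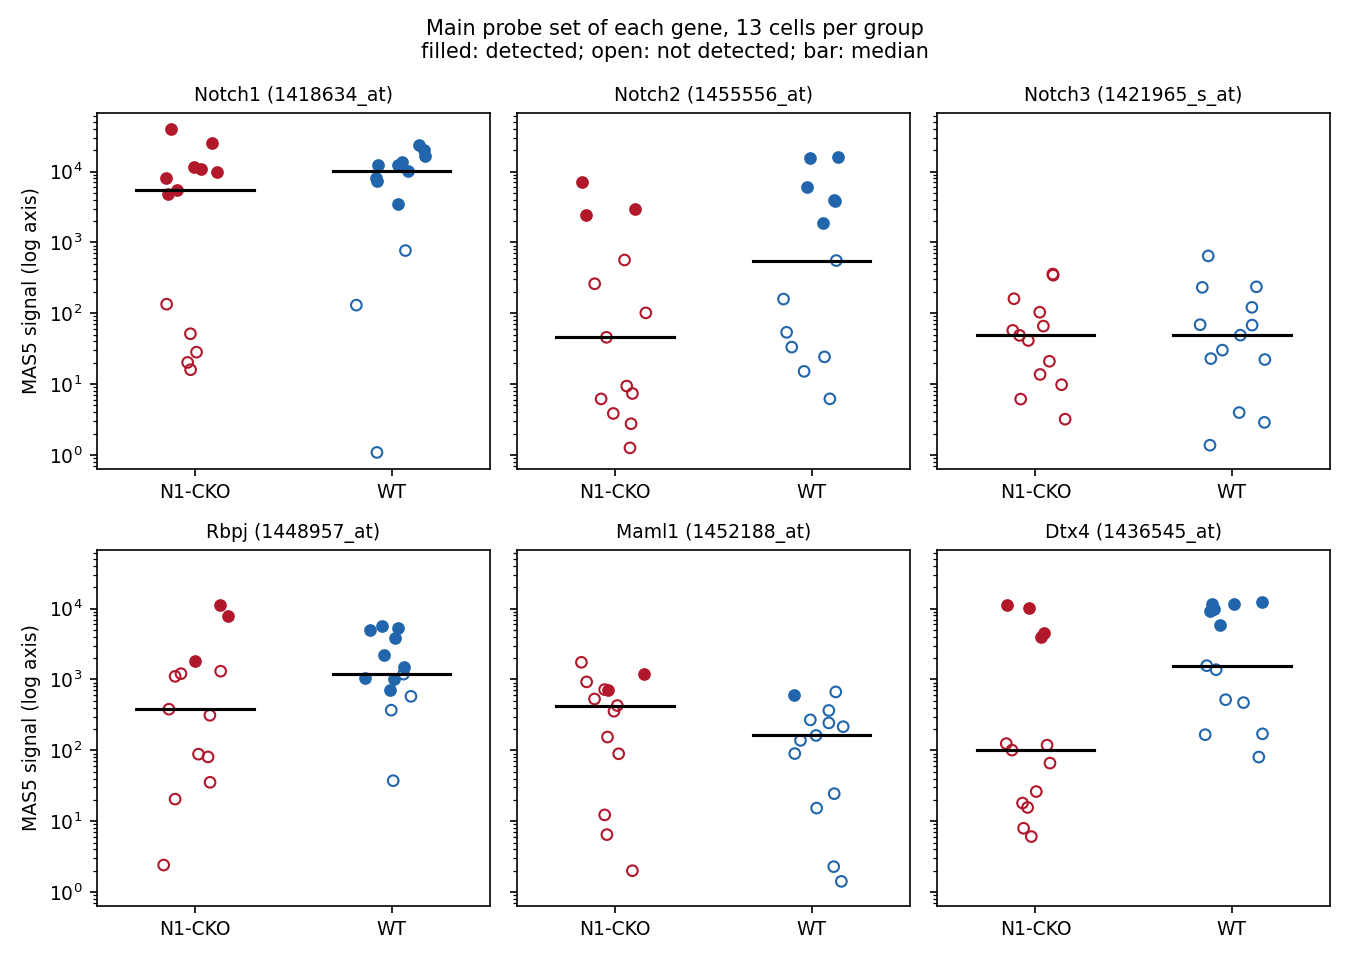
MAS5 signal on a log axis of the main probe set of each gene in every cell, N1-CKO left of WT; filled points are detected, open points are not, and the bar is the median of 13 cells. Notch1 split into bright and dim cells in both groups. Dtx4 did so in N1-CKO cells, with none between 124 and 4008, whereas its undetected WT cells spread from 80.4 to 1567. The median of Dtx4 was 101 in N1-CKO and 1567 in WT cells.

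Rbpj, the DNA-binding partner through which all Notch receptors act, is covered by 3 probe sets that gave opposite directions. The main one, 1448957_at, ran from 2.41 through a median of 380 to 11376 in N1-CKO cells, against 37.3, 1191 and 5747 in WT cells. It was detected in 3 N1-CKO cells (23.1%, interval 5.04 to 53.8) and 9 WT cells (69.2%, interval 38.6 to 90.9), and differed by -1.64, with SDs of 3.01 in N1-CKO and 1.99 in WT cells. These counts depend on the threshold: they were 9 and 12 at the 80th percentile, 2 and 2 at the 95th, and 4 and 6 with 1 common threshold. N1-CKO cells 1, 2 and 4, at 1108, 1309 and 1208, lay below their own arrays' thresholds. WT cells 9, 10 and 11, at 1060, 714 and 1017, lay above theirs. By contrast, 1454896_at ran from 1.21 through 1058 to 38628 in N1-CKO cells, against 2.79, 110 and 7801 in WT cells. It was detected in 7 N1-CKO cells (53.8%, interval 25.1 to 80.8) and 3 WT cells (23.1%, interval 5.04 to 53.8), and differed by 1.56. The third, 1418114_at, was detected in 2 N1-CKO and 1 WT cells and differed by -0.05.

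The opposite directions came from different cells. By each array's own threshold, 2 N1-CKO cells had only 1448957_at, 6 only 1454896_at, 1 both and 4 neither of these. Among WT cells, 7 had only 1448957_at, 1 only 1454896_at, 2 both and 3 neither. Their log2 signals correlated with r = 0.05 in N1-CKO and 0.45 in WT cells. With any probe set counted, Rbpj was detected in 9 N1-CKO cells (69.2%, interval 38.6 to 90.9) and 10 WT cells (76.9%, interval 46.2 to 94.96). The mean of all 3 probe sets differed by -0.04. Both signs were the same in either 18S set: 1448957_at differed by -2.82 among high-18S and -0.90 among low-18S cells, and 1454896_at by 1.17 and 1.80. Below the Gapdh limit of 3 they were -1.74 and 2.07. These arrays give no single direction for Rbpj as a gene, and the places of the probe sets in the transcript are not known here.

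**Figure D3:**
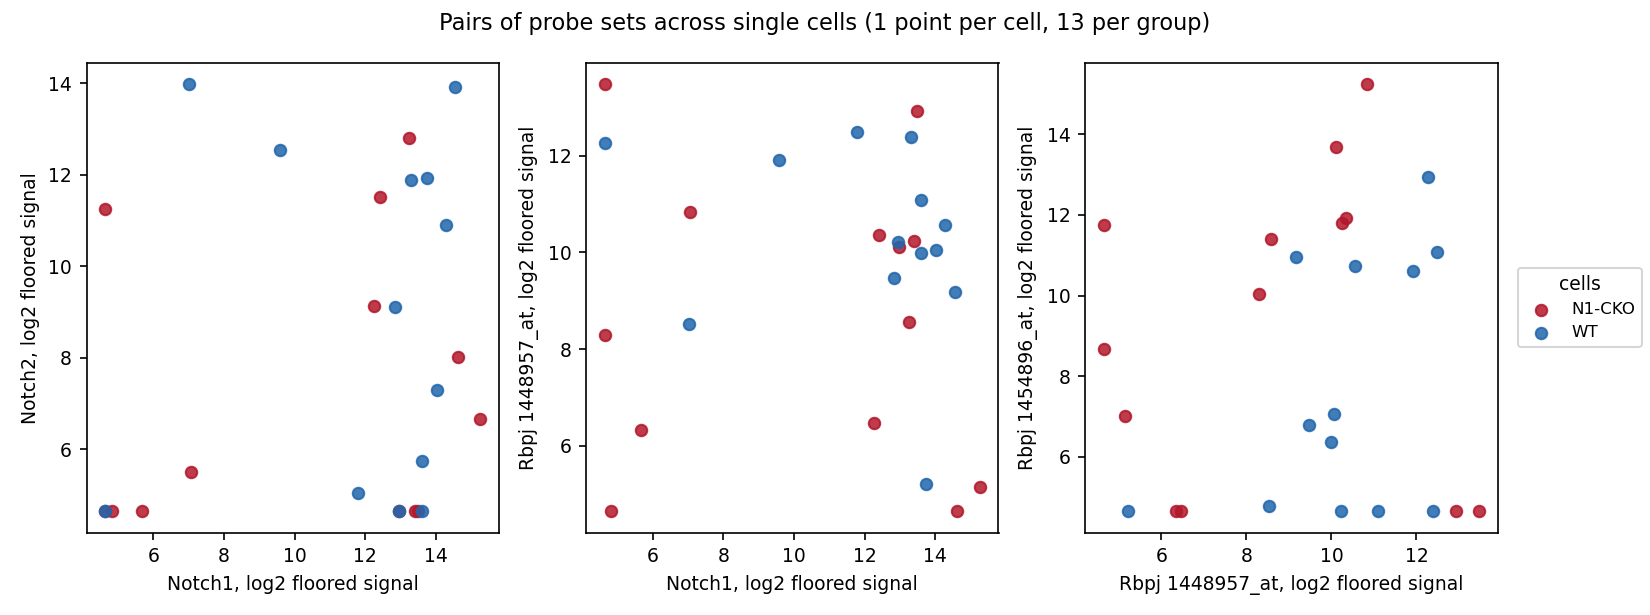
Log2 floored signals of Notch1 against Notch2 (left), Notch1 against Rbpj 1448957_at (middle) and the 2 Rbpj probe sets against each other (right), with 1 point per cell, red for N1-CKO and blue for WT. In the right panel 6 N1-CKO cells and 1 WT cell had only 1454896_at detected, and 2 N1-CKO and 7 WT cells only 1448957_at.

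Notch1 and Rbpj were not tied in level. The main probe sets correlated with r = -0.14 over 26 cells after group means were removed (rho -0.14). By main probe sets and each array's own threshold, both were detected in 1 N1-CKO and 7 WT cells. Counting any probe set, Notch1 and Rbpj were found together in 5 of 13 N1-CKO cells (38.5%, interval 13.9 to 68.4) and 8 of 13 WT cells (61.5%, interval 31.6 to 86.1). A receptor, Notch1 or Notch2, stood with Rbpj in 6 N1-CKO and 9 WT cells. Rbpj without a receptor was seen in N1-CKO cells 5, 11 and 12 and in WT cell 7, and a receptor without Rbpj in 3 cells of each group.

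Maml1, the coactivator that completes the complex with the receptor fragment and Rbpj, was dim and had higher means in N1-CKO cells by all 3 probe sets. The main one, 1452188_at, ran from 2.00 through 429 to 1746 in N1-CKO cells, against 1.41, 162 and 667 in WT cells. It was detected in 2 N1-CKO and 1 WT cells and differed by 1.03, with SDs of 2.22 in N1-CKO and 1.78 in WT cells. N1-CKO cells 1, 7, 8, 10 and 12 lay above every WT cell, and the brightest, cell 1, was still below the threshold of its own array. Without cell 1 the difference was 0.79, and among low-18S cells 0.97. For 1426769_s_at, which the annotation ties to the same sequence record and which is thus no independent measure, the counts were 4 N1-CKO and 0 WT cells and the difference 1.45. For 1441697_at they were 0 and 0 cells and 0.41. Cells with a receptor, Rbpj and Maml1 together, by any probe set, numbered 2 in N1-CKO (1 and 7) and 1 in WT (9).

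Dtx4 had the lowest difference of the 6 genes, -2.99, between means of 7.75 ± 3.58 in N1-CKO and 10.74 ± 2.70 in WT cells (SD, n = 13 cells each). Its main probe set, 1436545_at, ran from 6.07 through 101 to 11159 in N1-CKO cells, against 80.4, 1567 and 12246 in WT cells. It was detected in 4 N1-CKO cells (30.8%, interval 9.09 to 61.4) and 6 WT cells (46.2%, interval 19.2 to 74.9). The 9 remaining N1-CKO cells stayed at 124 or below, while the 7 remaining WT cells reached up to 1567. At the 80th percentile the detected cells were 5 N1-CKO and 11 WT, at the 95th they were 2 and 6, and with any probe set 4 and 8. Among high-18S cells the difference was -0.52, with the transcript in 2 of 5 N1-CKO and 1 of 5 WT cells. Among low-18S cells it was -4.54, and there 2 N1-CKO and 5 WT cells of 8 each had the transcript. Below the Gapdh limit of 3 it was -1.95. The second probe set, 1455711_at, was detected in 1 N1-CKO and 2 WT cells and differed by -0.92. In WT cells Dtx4 and Notch1 correlated with r = -0.55 over 13 cells (rho -0.45), and the 3 WT cells without Notch1 (6, 7 and 8) all had Dtx4. In N1-CKO cells r was 0.14. Over all 26 cells, with group means removed, r was -0.10 (rho 0.01).

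**Figure D4:**
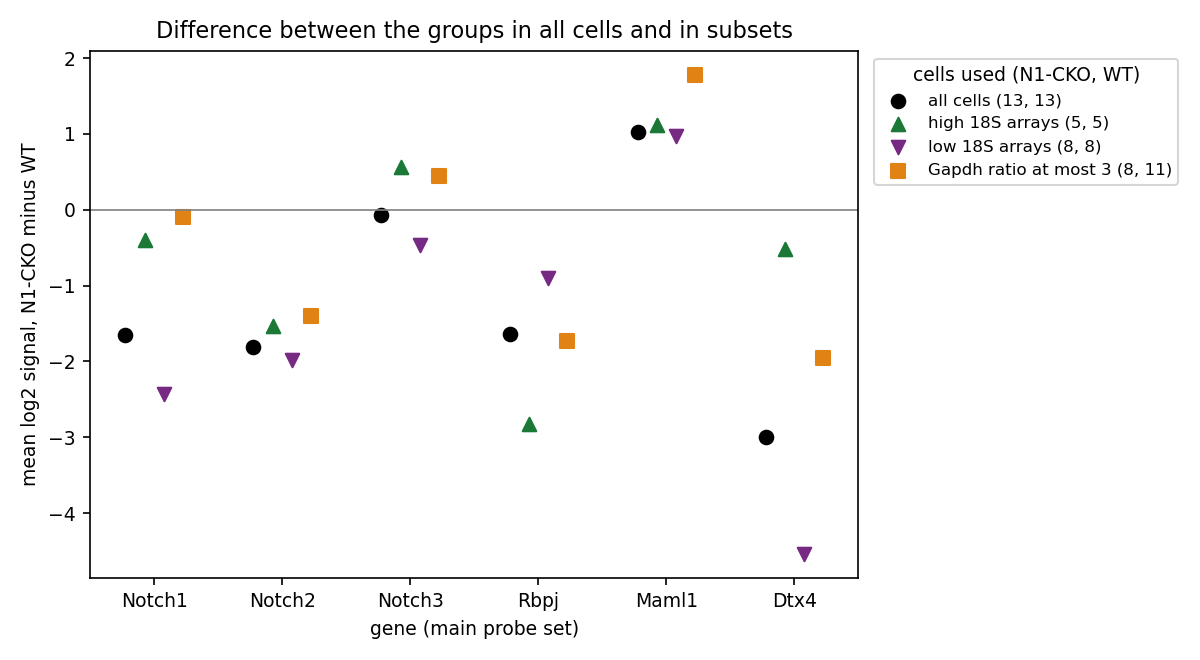
Mean log2 signal of N1-CKO minus WT cells for the main probe set of each gene, over all cells and over 3 subsets (number of N1-CKO and WT cells in the legend). Notch2, Rbpj and Dtx4 were below 0 in all 4, Notch1 came to -0.09 with the Gapdh limit, and Maml1 was above 0 in all 4.

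Of the 6 genes, 5 were detected in at least 2 of 26 cells and Notch3 was not. Among those 5, 4 were lower by at least 1 on the log2 scale in N1-CKO cells, where 22.3% of the 8280 genes detected in at least 2 cells were, and 1 (Maml1) was higher by at least 1, where 19.1% were. The 4 include Rbpj by its main probe set, whose second probe set has the opposite sign; without Rbpj, 3 of 4 were lower. Because the genes were chosen with earlier results known, nothing is read from these shares. At most 3 of the 6 genes were detected in 1 N1-CKO cell and at most 4 in 1 WT cell, with medians of 1 and 2. N1-CKO cells 12 and 13 had none by main probe sets, and every WT cell had at least 1.

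Other genes of the pathway lay on both sides of 0. Of 58 listed, 54 were measured and 40 detected in at least 2 cells, of which 12 were lower and 7 higher by at least 1, with a median difference of -0.08 against -0.04 over all 8280 genes, of which 22.3% were lower and 19.1% higher. The list's median was 0.59 among high-18S cells (all genes 0.18) and -0.51 among low-18S cells (all genes -0.15). The targets stood at one end: all 6 were lower by at least 1, with a median of -2.03, among them the repressors Hey1 (0 N1-CKO and 6 WT cells, -3.02) and Hes1 (1 and 6 cells, -2.96), and at the near end Heyl (-1.61) and the feedback inhibitor Nrarp (-1.06). Among high-18S cells the targets' median was -0.03, with Heyl at 2.08 and Nrarp at 1.58, and among low-18S cells it was -3.40. Over the whole list, 16 of 40 genes were higher by at least 1 among high-18S cells, where 31.5% of all 8280 genes were.

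Of 4 detected ligand genes 3 were higher by at least 1 (all 8280 genes: 19.1% higher and 22.3% lower). Dner, an atypical ligand, differed by 1.44 and the inhibitory Dll3 by 2.88, against 0.36 for Dll1 and 1.19 for Dll4. Among 4 sugar-modifying enzymes, the glucosyltransferase Poglut1 (6 N1-CKO and 1 WT cells) was higher by 2.05 and the fringe gene Rfng (9 and 4 cells) by 0.97, whereas Pofut1 (0.36) and Mfng (-0.13) were nearly level. Among 7 proteases and subunits that cut the receptors, 0 were lower and 2 higher by at least 1, from Nicastrin (Ncstn, -0.9995) and the ectodomain sheddase Adam10 (-0.88) to the gamma-secretase subunit Aph1a (1.00) and Adam17 (1.09). Several of these changed sign between the sets: Rfng differed by 2.70 among high-18S and -0.12 among low-18S cells, Aph1a by 2.64 and -0.03, and Adam17 by -0.86 and 2.31.

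Of the partners of Rbpj, 5 further receptor and coactivator genes held 1 lower and 0 higher by at least 1 (all 8280 genes: 22.3% lower and 19.1% higher). Snw1, a splicing factor and Rbpj coactivator, differed by -1.83 and the acetyltransferase Crebbp by -0.87, against 0.32 for Ep300 and 0.79 for Kat2b. Crebbp differed by 1.70 among high-18S and -2.48 among low-18S cells. Notch4, Rbpjl and Maml2 were detected in no cell. Of 6 corepressor genes 2 were lower and 0 higher: L3mbtl3 differed by -1.36 and the deacetylase Hdac1 by -1.30, against 0.18 for Sin3a and 0.61 for Ctbp2. Of 8 genes of receptor turnover 3 were lower and 1 higher. Cdk8, a kinase that marks the receptor fragment for degradation, differed by -1.37, and Fbxw7, the ubiquitin ligase subunit that then binds it, by -1.13 (0.44 among high-18S and -2.12 among low-18S cells). Of the other Deltex genes, Dtx3 (10 N1-CKO and 6 WT cells) differed by 2.17, Dtx2 by 0.55 and Dtx1 (6 and 9 cells) by -1.03. Dtx1 and Dtx4 thus lay on one side of 0 and Dtx3 on the other. Dtx1 differed by -1.02 among high-18S and -1.04 among low-18S cells, and Dtx3 by 0.89 among high-18S and 2.97 among low-18S cells.

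Cell cycle and progenitor genes had lower levels in N1-CKO cells too. All 9 cycling genes were lower by at least 1, where 22.3% of all 8280 genes were. Their median was -3.50 (-2.17 among high-18S, -4.53 among low-18S cells and -2.79 below the Gapdh limit). Per cell, the median number detected was 2 for N1-CKO (0 to 8) and 7 for WT (1 to 9), and the summed log2 level was 46.5 to 117 in N1-CKO and 63.2 to 126 in WT cells. Of 7 progenitor genes, 6 were lower by at least 1, with summed levels of 41.9 to 83.03 in N1-CKO and 58.4 to 93.8 in WT cells. Their median was -1.77 (-0.73 among high-18S, -2.74 among low-18S cells and -0.69 below the Gapdh limit), and Pax6 differed by 1.77 among high-18S cells. Of 5 detected photoreceptor genes 4 were higher by at least 1, where 19.1% of all genes were. The median of these 5 genes was 2.57 (1.501 among high-18S and 2.94 among low-18S cells). Summed levels of the photoreceptor list were 37.1 to 85.3 in N1-CKO and 35.3 to 81.7 in WT cells. Of that list, Rcvrn was detected in no cell. The part of these genes in the differences of Notch1, Notch2 and Dtx4 was not tested. Of the cells with Notch2, 2 of 3 N1-CKO and all 6 WT cells had the proliferation gene Mki67, which was detected in 4 N1-CKO and 11 WT cells in all.

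The genes whose log2 signal followed each member best over the 26 cells, with group means removed, were not members of the pathway. They are the highest among 4681 correlations over 26 cells, so high values arise from the search itself. For Notch1 they were Tpd52 (r = 0.79), the aminopeptidase gene Dnpep (0.76), the serine synthesis enzyme gene Psat1 (0.73), Ttyh2 (0.70) and the Apc-binding Amer2 (0.69). For Notch2 they were Nde1, a centrosomal protein of dividing neural progenitors (0.73), Pdlim7 (0.65), Mfge8 (0.61), the mitochondrial import gene Timm44 (0.61) and Icmt (0.61). For Rbpj (1448957_at) they were the mitochondrial ribosomal gene Mrps12 (0.69), Ormdl1 (0.67), Smap1 (0.66), Ttc19 (0.66) and the Ras regulator Rasa4 (0.66). For Dtx4 they were the autophagy receptor gene Sqstm1 (0.68), Lrrfip1 (0.68), Itpa (0.68), Adam11 (0.67) and Tmem97 (0.67).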

How the data were processed

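The deposited table holds array intensity on a linear scale for 45101 probe sets. The authors used MAS5 to produce it, as the submitters' processing notes say, in a version not given in the sources used here. The mean after trimming 2% from each end was close to 500 on every array, so total RNA per cell cannot be compared. Per the labels' protocols, cDNA was primed with oligo dT, tailed and amplified by PCR, so signal comes from near the 3' end. Probe sets with several genes (932), without a listed gene (9160) and controls (64) were left out. Computed here in Python 3.11.15 with numpy 2.4.6, pandas 2.3.3 and scipy 1.17.1 were differences of means, detection counts, Clopper-Pearson intervals and correlations. The code for differences and correlations was tried on values shuffled within each gene, with planted changes. The high-18S and low-18S cells were divided at the widest gap in the log2 signal of the 5' 18S control.

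Named beside the 6 genes are, in each pathway list, the 2 genes with the lowest and the 2 with the highest difference, and the 5 genes most correlated with each member detected in at least 6 cells. Others were named after their values were seen. The genes and lists were chosen with earlier results of these data known. Alternatives were the floor, quantile normalization, detection rule, probe set choice, array sets, the Gapdh limit and leaving out cells.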

Additional observations from a re-analysis of the deposited data

How the results depend on the processing

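No paired analysis was possible because cell numbers only name cells and no test was made. For the main probe sets, no difference of at least 1 changed sign under any alternative or with any 1 cell left out, and all moved by less than 1 SD over cells. That SD is wide (3.06 for Notch1), so the limit is a loose one. Another probe set taken alone was not among these alternatives, and for Rbpj 1454896_at differed by 1.56. With 1 cell left out, differences ranged from -2.26 to -1.17 for Notch1, from -2.28 to -1.39 for Notch2, from -0.29 to 0.21 for Notch3, from -2.06 to -1.31 for Rbpj, from 0.79 to 1.30 for Maml1 and from -3.47 to -2.73 for Dtx4. Differences no longer reached 1 for Notch1 among high-18S cells (-0.40), with the Gapdh limit (-0.09) and with medians over cells (-0.89), for Rbpj among low-18S cells (-0.90) and averaging its probe sets (-0.04), for Dtx4 among high-18S cells (-0.52) and for Maml1 with a higher floor (0.85), averaging its probe sets (0.96) and among low-18S cells (0.97); the causes were not tested. With medians over cells Notch2 differed by -3.60, with no floor by -2.78. The dim Notch1 probe set 1418633_at reversed to 1.19 among high-18S cells.

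The correlation of Notch1 with Rbpj was -0.35 among high-18S and 0.083 among low-18S cells. Detection at the 95th percentile left both receptors in 1 N1-CKO and 1 WT cell, Notch2 alone in 0 N1-CKO cells and neither in 2 WT cells. At the 80th percentile Notch2 alone was in 1 WT cell. Under the Gapdh limit, which keeps fewer cells, Notch2 alone was in 0 N1-CKO cells, and neither receptor in 1 N1-CKO and 0 WT cells. Among high-18S cells 16 of 40 pathway genes were higher by at least 1, where 31.5% of all genes were. Rbpj was detected in 9 N1-CKO and 12 WT cells at the 80th percentile, 2 and 2 at the 95th, and 4 and 6 with 1 common threshold. Notch3 was detected in 1 N1-CKO and 3 WT cells at the 80th percentile. Maml1 was detected in 10 N1-CKO and 6 WT cells at the 80th percentile and in 0 of either at the 95th, so its counts rest on the threshold.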

Other observations

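Notch1 transcript was found with the photoreceptor genes Otx2 and Crx in cells of both groups. Log2 signals of Notch1 and Otx2 correlated with r = 0.63 in N1-CKO and 0.53 in WT cells. For Crx r was 0.59 and 0.40, but for Neurod1, of the same list, it was -0.02 and 0.23. In WT cells genes outside that list reached similar values: Ccnd1 0.63, Hes1 0.54 and Mki67 0.53. In N1-CKO cells these were at 0.07, 0.17 and 0.07. All 8 N1-CKO cells with Notch1 also had Otx2, required for photoreceptor fate, and Crx, its photoreceptor partner, while 6 of the 10 WT cells with Notch1 had Otx2 and 5 had Crx. Otx2 was detected in 11 N1-CKO and 7 WT cells in all, and Crx in 10 N1-CKO and 6 WT cells. The difference between these counts was not tested, and the pairing with Otx2 and Crx was looked at with earlier results on both known. The N1-CKO cells without Otx2 (12 and 13) and without Crx (5, 12 and 13) also lacked Notch1. Their Gapdh ratios were 245 for cell 5, 30.3 for cell 12 and 3.43 for cell 13. The part of RNA quality in this pairing was not tested.

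Notch targets were detected in fewer N1-CKO than WT cells with Notch1. Of the 8 N1-CKO cells with Notch1, 1 had Hes1, 4 had Hes5 and 0 had Hey1, while of the 10 WT cells with Notch1, 5 had Hes1, 7 had Hes5 and 5 had Hey1. For the other targets the counts were 0 and 2 for Hey2, 1 and 5 for Heyl, and 1 and 2 for Nrarp. Hes5 was also detected in 2 N1-CKO cells (6 and 12) and 1 WT cell (6) without Notch1. These counts were not tested or set beside all genes. Over all cells, the targets' median difference was -0.03 among high-18S and -3.40 among low-18S cells, and Hes5 differed by -0.04 and -3.17.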
